A study of Mus musculus with 24 samples.

Results

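The 10 genes followed here belong to the bone morphogenetic protein (BMP) pathway or answer to it: the ligand genes Bmp4 and Bmp7, the receptor genes Bmpr1a and Bmpr2, the signal transducer gene Smad1, the inhibitory Smad gene Smad6, and Id1, Id2, Id3 and Id4. The genes were found by annotated symbol, and every probe was kept in view whatever its signal. The array carries 16 probes for them among 25697 probes, and 16593 named genes in all. Id2, Bmpr1a, Bmpr2 and Smad6 have 2 probes each, Smad1 has 3, and the others have 1. Probes of a gene are numbered from the brightest.

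BMP ligands are secreted dimers that bring type I receptors, such as the product of Bmpr1a, together with the type II receptor encoded by Bmpr2. The type I receptor phosphorylates Smad1 and its relatives, which join Smad4 and act on target genes in the nucleus, while Smad6 is induced by the pathway and holds it back. The Id genes are among the best known targets, and their proteins bind E proteins and keep basic helix-loop-helix (bHLH) factors off DNA. In neural progenitors BMP signalling is known for favouring the astrocyte fate over the oligodendrocyte and neuronal fates.

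The cells were mouse glial progenitors derived from embryonic stem cells and kept in EGF and FGF on N2 medium, and 19 arrays were hybridized in 3 rounds that the labels number. Hybridization 1 held 3 arrays each of undifferentiated Dgcr8 flox/delta cells, differentiated flox/delta cells (EGF and FGF withdrawn, B27 and 1% serum added) and undifferentiated Dgcr8 knockout cells, which the labels also call mock. Hybridizations 2 and 3 held knockout cells given mock (4 arrays), let-7 (3) or miR-125 (3). Dgcr8 encodes a subunit of the complex that cuts microRNA precursors in the nucleus. Knockout cells had received tamoxifen, 1 uM for 16 h and then 100 nM for 16 h, and the labels list no tamoxifen or mock for flox/delta cells. One Dgcr8 allele was already deleted in the flox/delta cells. The labels name neither the member of each microRNA family nor the differentiation state of the transfected cells, and they do not say whether the 3 replicates of hybridization 1 came from separate cultures, so that p-values there measure the spread between these samples.

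On the log2 scale of normalized signal, the Dgcr8 probe read 7.29, 7.48 and 7.26 in undifferentiated flox/delta cells, 6.96, 7.14 and 7.33 in differentiated ones, and 6.80, 7.02 and 6.66 in knockout cells. The knockout arrays all lay below the undifferentiated flox/delta arrays but overlapped the differentiated ones, and since the place of the probe relative to the deletion is not known here, this is a weak check of the labels. Between 11788 and 13129 probes were detected per array, and mean raw signal was 298 to 474 in hybridization 1, 1429 to 1523 in hybridization 2 and 756 to 868 in hybridization 3. Levels are therefore compared only within hybridization 1 or within hybridizations 2 and 3, which were normalized apart.

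The microRNAs given back each belong to a family whose 5′ arms share a seed, bases 2 to 8, by which targets are recognised. The mature sequences of a pair from each family are shown because the labels do not say which was used, with the seed in capitals (RefSeq, GRCm38.p6).
let-7a-5p: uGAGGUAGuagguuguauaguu
let-7b-5p: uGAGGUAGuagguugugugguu
miR-125a-5p: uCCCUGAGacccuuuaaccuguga
miR-125b-5p: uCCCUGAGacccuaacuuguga
The let-7 seed was common to all 8 let-7 5′ arms in the table, and the miR-125 seed to both miR-125 arms.

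Start regions were found in the RefSeq promoter table (GRCm38.p6, 300 bases around each start) for 8 of the 10 genes, all but Id1 and Bmp7. Those of Id2, Id3 and Id4 are shown because these genes moved apart from one another in the results, and capitals mark GGCGCC, a GC-rich element bound by BMP Smads, or CAGAC and its reverse complement GTCTG, the core of a Smad box. The Id2 window lies at chr12:25096043-25096342 on the minus strand, that of Id3 at chr4:136143572-136143871 on the plus strand and that of Id4 at chr13:48260866-48261165 on the plus strand.
Id2: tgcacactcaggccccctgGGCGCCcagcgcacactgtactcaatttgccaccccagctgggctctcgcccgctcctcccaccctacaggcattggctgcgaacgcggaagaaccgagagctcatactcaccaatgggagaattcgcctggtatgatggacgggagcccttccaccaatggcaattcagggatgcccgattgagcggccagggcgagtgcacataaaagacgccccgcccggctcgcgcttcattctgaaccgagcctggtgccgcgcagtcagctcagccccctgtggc
Id3: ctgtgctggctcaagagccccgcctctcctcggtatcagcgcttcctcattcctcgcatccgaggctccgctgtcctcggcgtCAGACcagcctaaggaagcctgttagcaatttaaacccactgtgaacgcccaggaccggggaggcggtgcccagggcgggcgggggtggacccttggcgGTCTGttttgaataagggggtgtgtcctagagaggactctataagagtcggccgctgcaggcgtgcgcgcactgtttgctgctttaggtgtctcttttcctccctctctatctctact
Id4: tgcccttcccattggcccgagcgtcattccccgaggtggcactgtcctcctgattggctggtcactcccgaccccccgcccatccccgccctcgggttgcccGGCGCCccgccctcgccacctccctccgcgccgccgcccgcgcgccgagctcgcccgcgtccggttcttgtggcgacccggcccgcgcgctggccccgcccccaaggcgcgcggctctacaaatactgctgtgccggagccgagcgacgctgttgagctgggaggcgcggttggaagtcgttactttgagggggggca
Id2 and Id4 held 1 GGCGCC each and no CAGAC or GTCTG, while Id3 held 1 CAGAC and 1 GTCTG, 2 matches in all, and no GGCGCC. Both strands were searched, and the motifs do not overlap. GGCGCC was present in 4 of the 8 windows (Id2, Id4, Bmpr1a and Bmpr2) and in 11.9% of all 32851 windows of that length. CAGAC or GTCTG was present in 1 of the 8 and in 49.6% of all windows. A match is a description of the letters and not evidence of binding.

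Differentiated flox/delta cells were set against undifferentiated ones to ask how the pathway stands once growth factors give way to serum. Bmp7 and the genes Id1 and Id3 fell, Id4 rose 8.53-fold (3.20-fold with no background correction), and Smad1 and one Id2 probe rose. Of the 16 probes, 11 (from 7 genes) were detected on at least 3 of the 6 arrays and tested. With limma and Benjamini-Hochberg adjustment over all 12738 tested probes, 4 were higher and 3 lower, against 26.6% and 26.9% of all tested probes, 53.5% in either direction. The groups did not overlap for 8 of the 11, against 60.8% of all. The share of these probes that changed was thus near that of the whole table. Their median log2 difference was 0.22, and that of all tested probes was -0.02. In these bulk samples, fewer cells of a type and less RNA per cell cannot be told apart.

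Among the ligands, Bmp7, which acts in neural and kidney development, had log2 signals of 7.28, 7.25 and 7.50 in undifferentiated cells and 5.04, 4.78 and 4.88 in differentiated cells. All differentiated arrays were far below the undifferentiated ones, though still detected. The log2 difference was -2.44 ± 0.11 (SE, n = 3 each, limma adjusted p = 1.93e-07), a 5.44-fold fall. The size depended on the background correction: Bmp7 passed at -1.17 without it, a 2.26-fold fall, and at -1.15 with the authors' deposited values. Bmp4, the ligand most used to drive astrocyte formation in culture, was not well above background: it was detected on 1 of the 9 arrays of hybridization 1, a differentiated one, and on 1 of the 10 others.

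Neither probe of the type I receptor gene Bmpr1a passed the test. The brighter one had log2 signals of 8.25, 8.45 and 8.06 before and 8.57, 8.56 and 8.54 after differentiation. The groups did not overlap, but the difference of 0.30 ± 0.12 missed the threshold (n = 3 each, limma adjusted p = 0.0563, 95% interval 0.04 to 0.57). It passed with no background correction (0.25, adjusted p = 0.0287), with the authors' deposited values (0.24, adjusted p = 0.0282), with all arrays in 1 fit (0.30, adjusted p = 0.0462) and without undifferentiated replicate 2 (0.40, adjusted p = 0.0215). The second probe differed by 0.08 ± 0.10. The probes of Bmpr2 were not tested, since they were detected on 2 of the 6 arrays at most. Smad1, the transducer, gave 8.57, 8.94 and 8.69 with its brightest probe in undifferentiated cells and 9.48, 9.60 and 9.32 in differentiated cells. The groups were apart, with a log2 difference of 0.73 ± 0.13 (n = 3 each, limma adjusted p = 0.00106), and the second probe rose as well, by 0.54 ± 0.12 (adjusted p = 0.00437). The dimmest probe differed by 0.06 ± 0.15 (adjusted p = 0.748). Neither probe of Smad6 was detected on any array of this comparison.

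The 4 Id genes did not move together. Id1, an early responder to BMP, had log2 signals of 8.14, 8.38 and 8.08 before and 7.39, 7.45 and 7.37 after differentiation, without overlap (-0.80 ± 0.11, n = 3 each, limma adjusted p = 0.000258). Id3, often expressed alongside Id1, went from 8.90, 8.99 and 8.95 to 7.50, 7.82 and 7.44, a log2 difference of -1.36 ± 0.12 (n = 3 each, limma adjusted p = 1.35e-05). Every differentiated array lay more than the whole spread of its group below the undifferentiated arrays.

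Id4, known for opposing oligodendrocyte formation, was close to background in undifferentiated cells, at 4.96, 4.80 and 5.14, with 1 of the 3 arrays not detected. In differentiated cells it read 8.34, 7.99 and 7.85, all far above. The log2 difference was 3.09 ± 0.15 (n = 3 each, limma adjusted p = 2.13e-07), and Id4 passed at 1.68 with no background correction and at 1.65 with the authors' deposited values. Id2, found in both neural and oligodendrocyte progenitors, read 7.31, 7.37 and 7.44 with its brighter probe before and 8.09, 8.14 and 7.61 after. The lowest differentiated array was just above the highest undifferentiated one, and the difference was 0.57 ± 0.15 (n = 3 each, limma adjusted p = 0.00881). The second Id2 probe, much dimmer, differed by 0.22 ± 0.13 (adjusted p = 0.200).

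**Figure D1:**
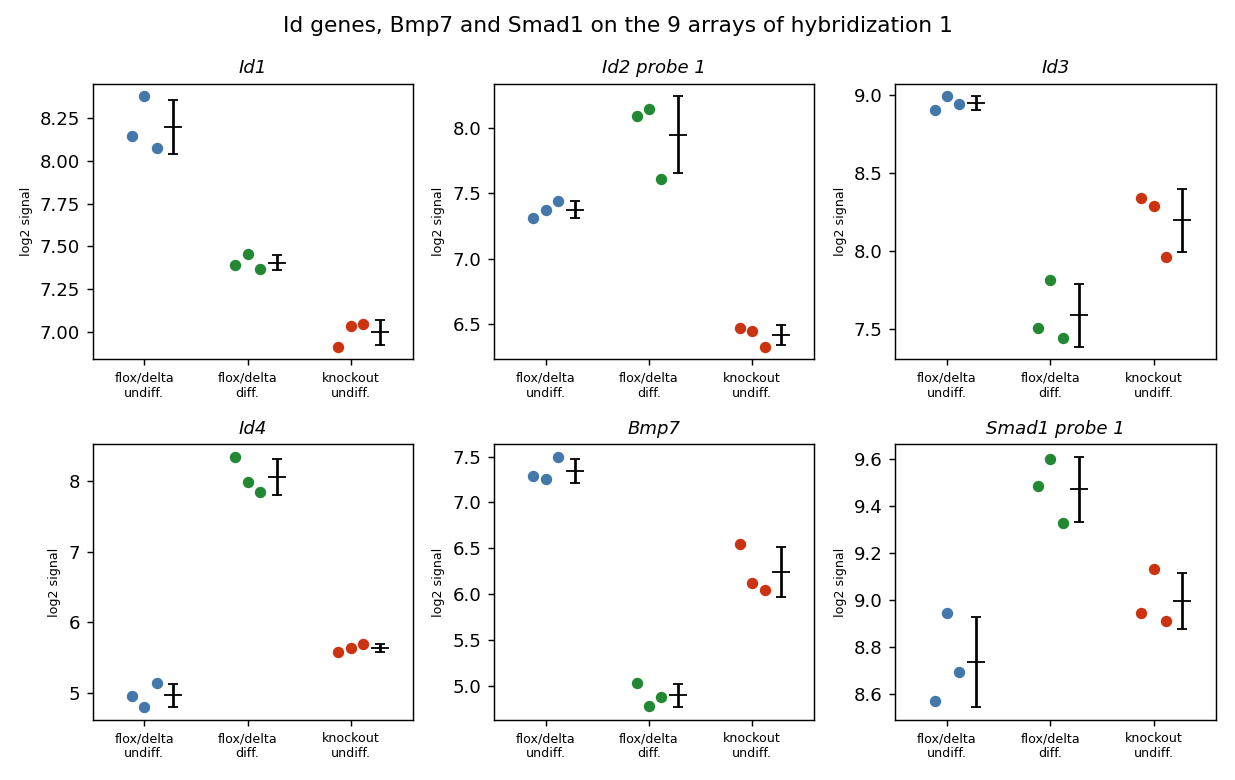
Log2 normalized signal of Id1, Id2 (brighter probe), Id3, Id4, Bmp7 and Smad1 (brightest probe) on the 9 arrays of hybridization 1, with points for arrays and bars for the mean ± SD (n = 3 per group); each panel has its own scale. Id4 was highest in differentiated cells, Bmp7 and Id3 were lowest there, and Id1 and Id2 were lowest in knockout cells.

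Undifferentiated Dgcr8 knockout cells were compared with the same flox/delta arrays, so both comparisons share those 3 controls. The labels list tamoxifen and mock for the knockout cells only, so loss of Dgcr8 and these treatments cannot be told apart. Id1, Id2, Id3 and Bmp7 were all lower in knockout cells, and Id4 and 1 probe of Smad1 were higher. Of 12 tested probes (8 genes), 2 were higher and 5 lower by limma with adjustment over 12356 probes, against 27.0% and 25.7% of all tested probes, 52.7% in either direction. The groups did not overlap for 8 of the 12, against 60.5% of all. The median log2 difference was 0.08 for these probes and 0.02 for all.

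Bmp7 read 6.55, 6.12 and 6.05 on the knockout arrays, all below the flox/delta arrays given above (-1.10 ± 0.14, n = 3 each, limma adjusted p = 0.000205). Bmp4 was detected on none of these 6 arrays. The Bmpr1a probes differed by 0.24 ± 0.13 and 0.10 ± 0.10 and the Bmpr2 probe that was tested by 0.06 ± 0.11 (adjusted p from 0.154 to 0.671, 95% intervals all including 0). One Smad1 probe, the second, passed: it read 8.37, 8.56 and 8.52 in flox/delta and 8.78, 9.01 and 8.88 in knockout cells, with no overlap (0.41 ± 0.10, n = 3 each, limma adjusted p = 0.00902). That call was lost with median scaling (0.53, adjusted p = 0.0727). The brightest and the dimmest probe differed by 0.26 ± 0.12 and 0.25 ± 0.12 (adjusted p = 0.102 and 0.110). Both passed without flox/delta replicate 2 (0.36 and 0.35, adjusted p = 0.0325 and 0.0428). The Smad6 probes were not tested, and 1 of them was detected on a single knockout array.

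Id1 read 6.91, 7.03 and 7.05 on the knockout arrays, the lowest of the 3 groups (-1.20 ± 0.11 against flox/delta, n = 3 each, limma adjusted p = 1.97e-05). Id2 read 6.47, 6.45 and 6.33 with its brighter probe, again below both flox/delta groups (-0.96 ± 0.09, n = 3 each, limma adjusted p = 3.41e-05). The dim Id2 probe was not well above background on any knockout array, at least 1.19-fold lower (adjusted p = 0.00362); that call was lost with median scaling (-0.49, adjusted p = 0.106) and with the authors' deposited values (-0.15, adjusted p = 0.0518).

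Id3 read 8.34, 8.29 and 7.96 in knockout cells, between the other groups (-0.75 ± 0.12, n = 3 each, limma adjusted p = 0.000592). Id4 read 5.58, 5.64 and 5.70, above every undifferentiated flox/delta array (0.67 ± 0.11, n = 3 each, limma adjusted p = 0.000748). With no background correction the differences that passed were smaller for Id4 (0.23), the brighter Id2 probe (-0.58) and Bmp7 (-0.65).

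A direct contrast of differentiated flox/delta with undifferentiated knockout cells placed the levels in order. It called 5 of 12 tested probes higher and 2 lower in differentiated cells (limma, adjusted over 12815 probes), against 33.3% and 35.8% of all tested probes, 69.2% in either direction. The groups did not overlap for 7 of the 12, against 72.1% of all. Id4 was higher in differentiated cells by 2.42 ± 0.13 and the brighter Id2 probe by 1.53 ± 0.14, and Id1 by 0.41 ± 0.09 (limma adjusted p = 3.07e-07, 1.26e-05 and 0.0027, n = 3 each). Bmp7 and Id3 were lower, with log2 differences of -1.34 ± 0.14 and -0.61 ± 0.14 (adjusted p = 2.93e-05 and 0.00342). With no background correction all 5 passed, with smaller differences for Id4 (1.45), the Id2 probe (1.00), Id1 (0.27) and Bmp7 (-0.52). The order of groups from high to low was thus undifferentiated flox/delta, knockout, differentiated for Bmp7 and Id3, and undifferentiated flox/delta, differentiated, knockout for Id1. For Id4 it was differentiated, knockout, undifferentiated flox/delta, and for the brighter Id2 probe differentiated, undifferentiated flox/delta, knockout. Neighbours were apart in each of these orders by their own test. The dim Id2 probe did not separate differentiated from undifferentiated flox/delta cells (0.22 ± 0.13, limma adjusted p = 0.200). The brightest Smad1 probe was higher in differentiated than in knockout cells (0.47 ± 0.11, adjusted p = 0.00365). With median scaling the calls for Id1 (0.33, adjusted p = 0.248) and for this Smad1 probe (0.30, adjusted p = 0.301) were lost.

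Summed marker signals of several cell types moved with these groups, while those of neural progenitors differed little. The 9 astrocyte markers had a summed log2 signal of 70.4 to 73.6 in undifferentiated flox/delta, 65.6 to 66.4 in knockout and 96.0 to 96.7 in differentiated cells, and Gfap was not detected in either undifferentiated group. The 8 oligodendrocyte lineage markers with a probe summed to 57.2 to 60.4, 48.9 to 50.1 and 70.5 to 71.6 in the same order. That sum does not stand for each marker, since Olig2, which is among them, differed by -0.84 ± 0.19 in differentiation. Of the 8 neural progenitor markers 4 were detected on all 3 arrays of each group, and Pax6 and Msi1 on none. These 8 summed to 59.3 to 59.9, 58.1 to 59.0 and 59.6 to 60.1, again in that order. The 8 neuron markers summed to 47.2 to 48.1, 46.5 to 46.9 and 53.3 to 53.9 in undifferentiated flox/delta, knockout and differentiated cells, with Stmn2 and Snap25 not detected in any of them. The 5 pluripotent cell markers summed to 25.1 to 31.4, 25.5 to 28.03 and 23.6 to 27.1, so that the undifferentiated flox/delta arrays differed most among themselves. Of these 5 markers, 4 were detected on all 3 undifferentiated flox/delta arrays, 1 on all 3 knockout arrays and 3 on all 3 differentiated arrays. The 3 microglia markers with a probe were not detected on any of the 9 arrays. The part that cell makeup had in the values of the Id genes and Bmp7 was not tested.

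Other genes of the pathway changed in both comparisons, and counts here use 1 probe per gene, of which 54.3% were called over all named genes in each comparison (27.8% higher and 26.6% lower in differentiation, 27.8% and 26.5% in the knockout). In differentiation 4 of 6 tested secreted antagonists rose and 1 fell. Nbl1, which encodes a DAN family antagonist, rose by 3.19 ± 0.10, Chrd, encoding chordin, by 0.64 ± 0.15, and Bmper, encoding a chordin-like binding protein, fell by 2.38 ± 0.15 on the log2 scale. In the knockout 2 of 5 tested antagonists rose and 1 fell: the log2 differences were 1.68 ± 0.10 for Nbl1, -1.63 ± 0.15 for Bmper and 0.40 ± 0.12 for Twsg1, whose product binds BMPs and chordin.

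Of other receptors and co-receptors, 3 of 5 tested genes rose in differentiation and none fell. These were Rgma, a BMP co-receptor (0.89 ± 0.12), Bmpr1b, another type I receptor (0.80 ± 0.13), and Acvr2b, a type II receptor (0.31 ± 0.10). In the knockout 3 of 6 rose and 2 fell. Acvr2b rose there by 2.70 ± 0.10 and Rgmb, a relative of Rgma, by 1.51 ± 0.09, and Rgma fell by 0.90 ± 0.16.

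Among other Smads and intracellular regulators, 1 of 6 tested genes rose and 2 fell in differentiation, and 2 of 5 rose and 1 fell in the knockout. Skil, whose product represses Smad complexes, rose by 0.67 ± 0.09 and by 0.85 ± 0.09. Smad5, a relative of Smad1, fell by 0.65 ± 0.11 and by 0.35 ± 0.10. Its other probes disagreed in the knockout, at 0.13 and -0.25. Tob1 fell in differentiation by 0.40 ± 0.09, and Smurf2, encoding a ubiquitin ligase for Smads, rose in the knockout by 0.46 ± 0.14. Of other BMP ligands only Bmp5 was tested, and it fell in differentiation (-0.42 ± 0.14, limma adjusted p = 0.027) and did not pass in the knockout (0.00 ± 0.15).

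Other known BMP target genes gave 2 higher of 2 tested in differentiation, Hey1 (1.34 ± 0.13) and Msx1 (0.61 ± 0.14). In the knockout 2 of 3 rose and 1 fell. Msx1 was not well above background on the knockout arrays and was at least 2.67-fold lower. Gata2 was not well above background in flox/delta cells and was at least 2.25-fold higher in the knockout, and Hey1 was higher by 0.52 ± 0.13. All 3 passed the limma test (adjusted p = 6.8e-06, 2.06e-06 and 0.00723).

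Of 6 tested bHLH and E protein genes, whose products Id proteins bind or oppose, 4 fell and 1 rose in the knockout, with a median log2 difference of -0.55 against 0.02 over all named genes. Hes5, a Notch effector, fell by 5.29 ± 0.20 on the log2 scale, to a level detected on 1 of 3 knockout arrays. Olig2, which directs the oligodendrocyte lineage, fell by 1.35 ± 0.15 and the E protein gene Tcf4 by 0.61 ± 0.10. In differentiation 2 of 7 fell, Olig2 (-0.84 ± 0.19) and Hes1 (-0.44 ± 0.12), and none rose by the probe counted. A second probe of the E protein gene Tcf12 passed there at 0.89 ± 0.19 (limma adjusted p = 0.00358), against 0.14 ± 0.10 for the one counted.

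**Figure D2:**
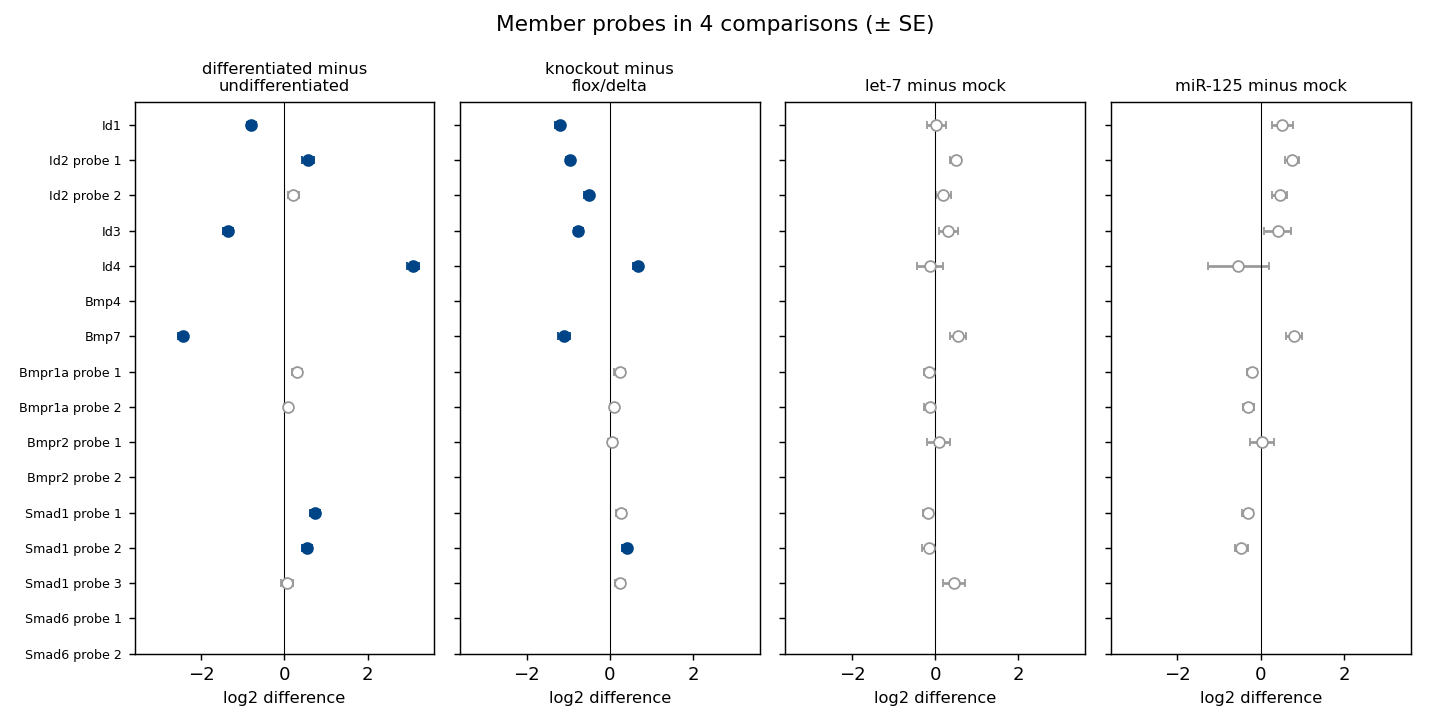
Log2 difference ± SE of each of the 16 probes in 4 comparisons, with filled points for adjusted p under 0.05 (limma), open points for tested probes that missed it and no point where a probe was not tested. The Id genes and Bmp7 spread widely to both sides in differentiation, and no probe is filled in the let-7 or miR-125 panels.

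Giving let-7 or miR-125 back to knockout cells asked whether the pathway genes follow a single microRNA family. No probe of the 10 genes passed in either comparison. For let-7, 12 probes were tested with a term for the hybridization, and 0 passed by limma, against 0.0388% of 12887 probes. At unadjusted p under 0.05 there were 2 of the 12 and 17.5% of all, the groups did not overlap for 1 of the 12 and 12.2% of all, and 5 of the 12 and 48.8% of all went the same way in all 3 pairs of arrays from 1 tamoxifen treatment. For miR-125, 11 probes were tested and 0 passed, as did 0 of 12690 (0%), with 4 of the 11 and 19.5% of all at unadjusted p under 0.05. The groups did not overlap for 7 of the 11, against 26.1% of all, and 8 of the 11 went the same way in all 3 pairs, against 53.7% of all. These 7 probes stand for 4 genes: 2 each for Id2, Bmpr1a and Smad1, and 1 for Bmp7. With the tamoxifen treatment as a replicate block, 8 probes of the whole table passed for let-7 in place of 5, and still none of these genes in either comparison. The comparisons share 2 mock arrays, replicates 2 and 3 of hybridization 3.

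Bmp7 came closest, together with Id2. In mock cells Bmp7 read 5.68 in hybridization 2 and 5.97, 5.49 and 5.74 in hybridization 3, of which the 5.49 was not detected. With let-7 it read 6.28 (hybridization 2), 5.83 and 6.43, and with miR-125 6.23, 6.64 and 6.75. All 6 microRNA arrays were above their own mock by tamoxifen treatment. The differences were 0.54 ± 0.19 for let-7 (adjusted p = 0.224 by limma, pairs 0.60, 0.35 and 0.69) and 0.81 ± 0.20 for miR-125 (adjusted p = 0.124, pairs 0.26, 1.16 and 1.01). Neither passed.

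The brighter Id2 probe read 6.86 in mock cells of hybridization 2 and 9.35, 8.88 and 8.98 in those of hybridization 3. With let-7 it read 7.34 in hybridization 2 and 9.32 and 9.56 in hybridization 3, and with miR-125 9.70 and 9.74 on replicates 1 and 3, with replicate 2 higher still. Both arrays of hybridization 2 were more than 1 unit below all of hybridization 3, whatever they had been given, and mock replicate 1 lay on both sides of that gap. By pairs Id2 was higher in each of the 6 again: by 0.47, 0.44 and 0.57 with let-7 and by 0.35, 1.12 and 0.76 with miR-125. Of all tested probes, 23.2% were higher in all 3 pairs with let-7 and 26.0% with miR-125.

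The Id2 difference was 0.50 ± 0.13 for let-7 (limma adjusted p = 0.159) and 0.74 ± 0.17 for miR-125 (adjusted p = 0.117), 95% intervals 0.18 to 0.81 and 0.34 to 1.15. For miR-125 the call depended on the fit: it passed with all 10 arrays in 1 model (0.76, adjusted p = 0.0356) and with the authors' deposited values (0.60, adjusted p = 0.0463). The model of all 10 arrays counts both mock arrays of replicate 1, and the labels do not say whether they hold the same RNA. The dim Id2 probe differed by 0.20 ± 0.18 and 0.45 ± 0.18 (adjusted p = 0.616 and 0.240).

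**Figure D3:**
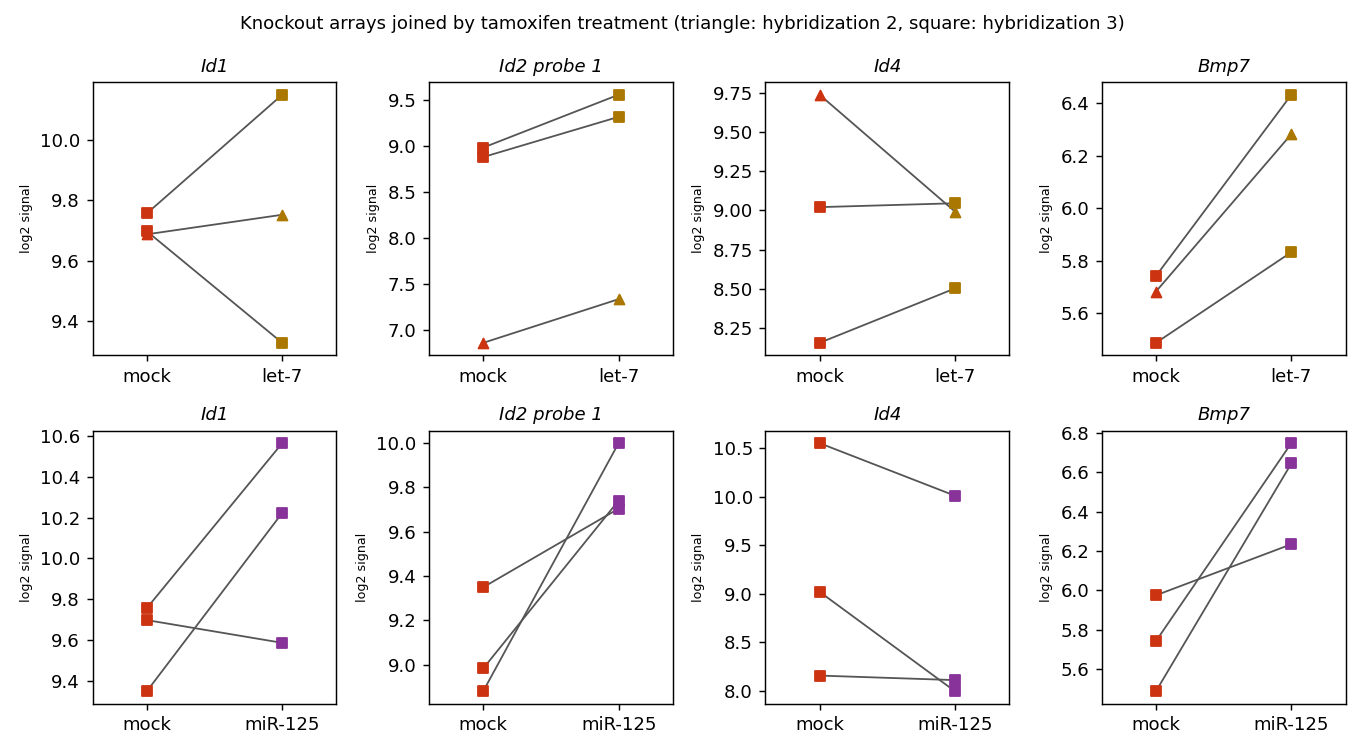
Log2 normalized signal of Id1, Id2 (brighter probe), Id4 and Bmp7 in knockout cells, each line joining the mock array and the let-7 (upper row) or miR-125 (lower row) array of 1 tamoxifen treatment; triangles are hybridization 2 and squares hybridization 3. The lines of Id2 and Bmp7 go up in all 3 pairs of both rows, and those of Id1 do not run 1 way in either row, nor do those of Id4 in the let-7 row, while all 3 lines of Id4 go down in the miR-125 row.

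Id4 varied among the arrays more than it differed between treatments. It read 9.74, 10.55, 9.02 and 8.16 in mock cells, 8.99, 9.05 and 8.50 with let-7 and 10.01, 7.995 and 8.11 with miR-125. The mock arrays alone covered more than 2 units. With miR-125 Id4 was below mock in all 3 pairs, by differences of -0.54, -1.03 and -0.047, and the fitted differences from mock were -0.12 ± 0.31 with let-7 and -0.54 ± 0.74 with miR-125 (limma adjusted p = 0.864 and 0.738). These fits did not pair the arrays by tamoxifen treatment. The unpaired 95% interval for miR-125, from -2.28 to 1.20, also holds the spread between tamoxifen treatments. It therefore cannot tell how large the change within pairs was. Without 1 array at a time, again unpaired, Id4 ran from -0.46 to 0.19 for let-7 and from -1.19 to 0.12 for miR-125. The direction of Id4 is thus not settled by these unpaired fits.

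Id1 differed by 0.03 ± 0.22 with let-7 (pairs 0.06, 0.39 and -0.37) and 0.52 ± 0.26 with miR-125 (pairs 0.87, 0.81 and -0.11). Id3 differed by 0.31 ± 0.23 and 0.41 ± 0.32 (limma adjusted p from 0.329 to 0.957 for these 4 values). The 2 brighter Smad1 probes were lower than mock in every pair of both comparisons, and none passed (limma adjusted p from 0.178 to 0.620). Their log2 differences were -0.17 ± 0.12 and -0.16 ± 0.15 with let-7 and -0.31 ± 0.13 and -0.46 ± 0.15 with miR-125. The dimmest Smad1 probe was higher in all 3 let-7 pairs (0.16, 1.00 and 0.22), by 0.46 ± 0.26 in the fit (limma adjusted p = 0.411). It was not tested for miR-125. Both Bmpr1a probes lay below mock with miR-125, with log2 differences of -0.20 ± 0.13 and -0.30 ± 0.13, and in 3 of 3 pairs each (adjusted p = 0.418 and 0.289). Bmpr2 was detected on all 10 arrays with 1 probe and differed by 0.08 ± 0.28 and 0.03 ± 0.28. Bmp4 and Smad6 were not tested against mock.

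Set directly against each other, let-7 and miR-125 gave no call among 13 tested probes (limma, 82 of 13617 probes called over the table, 0.602%, of which 0.242% higher and 0.360% lower with let-7, and 562 with the replicate block), and none of the 13 at unadjusted p under 0.05 (17.6% of all). The groups did not overlap for 2 of the 13, against 19.3% of all. For the brighter Id2 probe, let-7 minus miR-125 was -0.36 ± 0.17 (adjusted p = 0.306, 95% interval -0.74 to 0.02). For Bmp7 it was -0.37 ± 0.22 (adjusted p = 0.421, 95% interval -0.87 to 0.13). The intervals include 0 and also differences as large as those from mock, and the test thus does not show that the microRNAs act alike. Of the pathway lists above, 0 genes passed in the let-7, miR-125 or direct comparison, where 0.0345%, 0% and 0.657% of all named genes did.

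To set all 6 groups side by side, the raw signal of each probe was ranked within its own array, and these percentiles are given without a test because hybridization and group differ together. Id4 had median percentiles of 56.4 in undifferentiated flox/delta, 63.4 in knockout cells of hybridization 1 and 80.3 in differentiated cells. In hybridizations 2 and 3 the medians were 78.8 in mock, 76.1 with let-7 and 70.1 with miR-125. The mock knockout arrays, at 70.5 to 87.2, thus lay wholly above the knockout arrays of hybridization 1, at 62.9 to 63.8, and overlapped the differentiated arrays, at 79.4 to 82.8.

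Bmp7 showed the opposite ranks, with medians of 75.4 in undifferentiated flox/delta, 67.2 in knockout and 55.3 in differentiated cells of hybridization 1. Its medians in knockout cells of the other hybridizations were 52.5 with mock, 57.8 with let-7 and 60.4 with miR-125. The mock arrays, from 49.6 to 55.2, were again near the differentiated arrays, from 53.6 to 57.4, and below the knockout arrays of hybridization 1, from 66.6 to 70.3. Id3 stood at a median of 86.8, 77.0 and 82.4 in undifferentiated, differentiated and knockout cells of hybridization 1 and at 77.3, 77.0 and 77.3 in mock, let-7 and miR-125 cells. For Id1 the median was 73.7 in knockout cells of hybridization 1 and 81.0 in mock cells. Both groups bear the names knockout and mock, and whether their difference comes from the hybridization or the cells cannot be told apart.

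**Figure D4:**
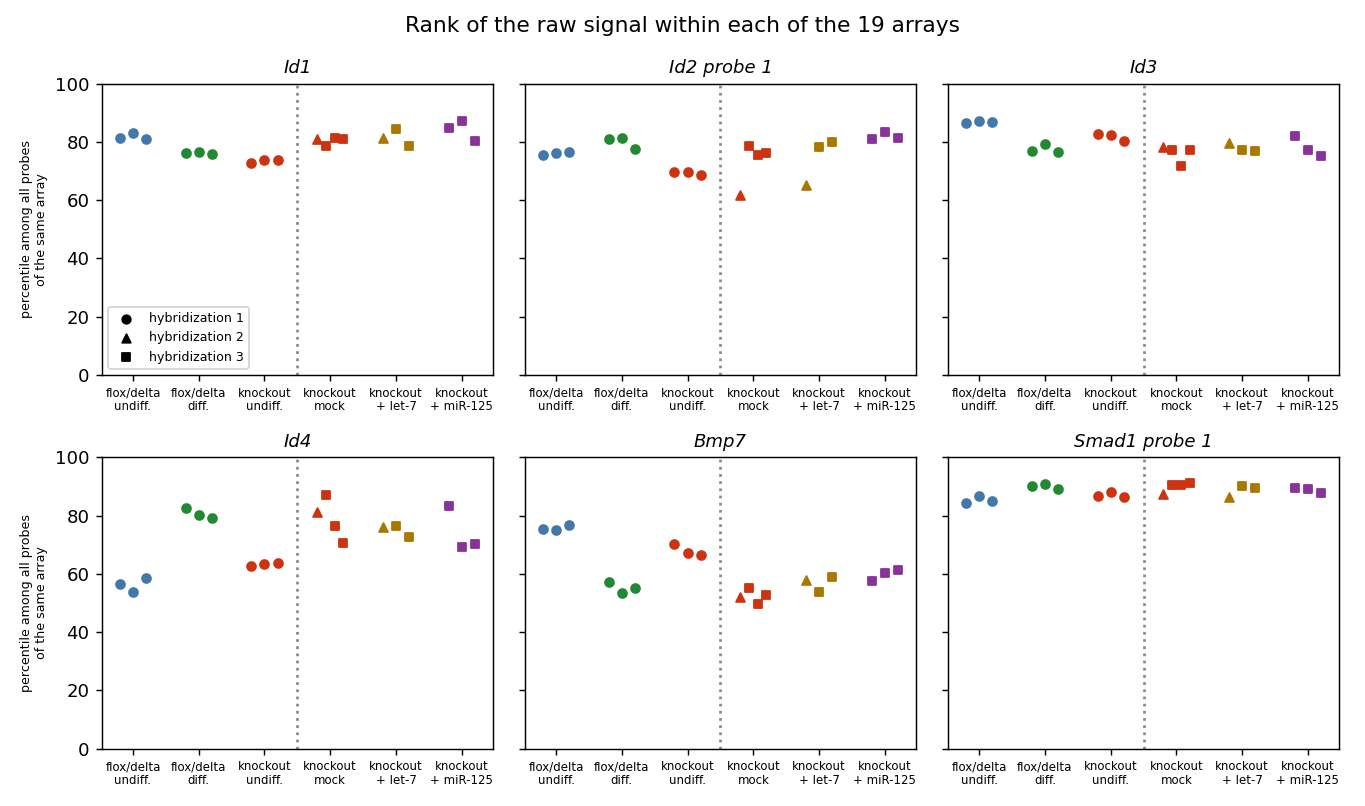
Percentile of the raw signal among all probes of the same array for Id1, Id2 (brighter probe), Id3, Id4, Bmp7 and Smad1 (brightest probe) on each of the 19 arrays, with the dotted line between array sets and marker shapes for hybridizations. The mock knockout arrays right of the line lie above the knockout arrays left of it for Id4 and below them for Bmp7.

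Genes whose signal ran most like that of a member over the 19 arrays, after subtraction of each hybridization's mean, were named by the highest Pearson correlation among 12553 probes. The points share arrays, groups and normalization, so the values are descriptions. For Id4 they were Lamb2, Ptprs and Hey1 (r = 0.95 each), of which Hey1 is also a known BMP target. For Bmp7 they were Inka2 (0.94), Ccdc58 (0.93) and Banf1 (0.93), and for Id2 Atp5j2 (0.94), Snx24 (0.93) and Nudt19 (0.93). Id3 was closest to Sh3gl2 (0.93), Pgls (0.92) and Lsm5 (0.92), and Id1 to Tmem218 (0.90), Csgalnact1 (0.88) and Arpp21 (0.88). Each correlation was lower in hybridizations 2 and 3 alone than in hybridization 1 alone. For the genes most like Bmp7 it was 0.75, 0.72 and 0.70 there, against 0.97 each in hybridization 1.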

How the data were processed

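The authors deposited the raw signal intensity of every probe with its detection p-value, per the file headers. Their normalized tables, 1 per comparison, hold linear intensity for differentiation and knockout and log2 signal for let-7 and miR-125, as the deposited values show. Of their tools, limma is known from the submitters' processing notes, version not given. The 24 sample entries describe 19 arrays, since 5 were entered again. The normalized tables number replicates 1 and 3 of the undifferentiated groups the other way round, and those of the raw table were kept.

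The arrays of hybridization 1 (9) and of hybridizations 2 and 3 (10) were each normalized together by neqc (limma 3.58.1, R 4.3.3; background from detection p, offset 16, quantile, log2). Probes with a detection p below 0.05 on 3 or more of the compared arrays were tested with limma (linear model, empirical Bayes, two-sided) on those arrays alone, at adjusted p under 0.05. The let-7 fit used mock replicate 1 of hybridization 2 and left out that of hybridization 3. A probe at background on a whole group has only a bound, computed against the lowest signal of probes above background. Symbols came from the platform annotation (23978 probes with 1, 0 with several, 1719 with none), and all 16 probes had an Entrez ID that gives the same symbol in the RefSeq table. Microarray signal precision rests here on 3 or 4 arrays a group. Named genes are all 10 members, the 3 most changed called genes of each list and the 3 genes most like each Id gene and Bmp7. Members and lists were chosen with earlier results of these data known.

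Same-numbered arrays of mock, let-7 and miR-125 are the same tamoxifen treatment per the labels. Their deviations from group means correlated (r = 0.63 to 0.87 for let-7, 0.34 to 0.53 for miR-125). For let-7, replicate 1 was hybridized apart from the other replicates, and a difference between hybridizations raises r with or without pairing. The let-7 values therefore cannot decide whether the numbers pair the arrays. The miR-125 arrays and their mock arrays shared a hybridization, so that difference does not enter their values. Their pairing rests on the labels, since 3 arrays a group are too few for the correlations to settle it. In hybridization 1 same-numbered arrays correlated weakly (r = -0.07 to 0.17 for differentiation and 0.08 to 0.26 for the knockout). The best values between other numbers were -0.04 to 0.15 and -0.06 to 0.09. These values do not settle whether the numbers pair the arrays there. On simulated data with 100 probes each at log2 1 and 2, the test recovered 87% and 100% for differentiation, 88% and 100% for the knockout, 44% and 81% for let-7 and 52% and 82% for miR-125. The simulated noise was independent between arrays, and far fewer probes changed than were called in differentiation and the knockout. These rates therefore need not hold for the data. Alternatives were other scalings, filters, the authors' deposited values, blocks and leaving out each array.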

Additional observations from a re-analysis of the deposited data

Results flagged for a closer look

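In the 4 mock arrays, Id1 read 9.35 on replicate 1 of hybridization 3, while the others read 9.69 to 9.76; the gap was 0.831 of the whole range, above Dixon's critical value of 0.829. Id3 read 8.33 on mock replicate 2 against 9.16 to 9.29 on the others, a gap of 0.865 of the range. Both mock arrays entered the miR-125 comparison and mock replicate 2 the let-7 comparison. Chance flags about 1 in 20 groups, and 10 sets of 4 mock arrays were looked at.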

How the results depend on the processing

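Over all alternatives, 299 of 304 recomputed values of called probes kept their call and direction, 5 lost the call and none reversed. The lost calls are Id2 probe 2 (median scaling, deposited values) and Smad1 probe 2 (0.53, adjusted p = 0.0727, median scaling) in the knockout, and Id1 and Smad1 probe 1 in differentiated against knockout (median scaling). Of uncalled values 9 gained a call: Bmpr1a probe 1 in differentiation in 4 settings, Smad1 probes 1 and 3 in the knockout without flox/delta replicate 2 (0.18 to 0.36 and 0.13 to 0.35 without 1 array), Smad1 probe 3 in differentiated against knockout without differentiated replicate 3 (-0.31, adjusted p = 0.0232) and Id2 probe 1 with miR-125 in 2. Without 1 array Bmpr1a probe 1 ran from 0.20 to 0.40. With no background correction several differences were smaller, such as 1.68 in place of 3.09 for Id4 and -1.17 in place of -2.44 for Bmp7 in differentiation. With median scaling 3725 probes were called in the knockout in place of 6514, and the median of all probes in differentiated against knockout moved from -0.04 to -0.10. No other scaling or filter, nor the replicate block (7 member probes in each of the 3 comparisons of hybridization 1), changed the number of member probes called there by over 1.5 times. In hybridization 1 the block, which per the labels shares only a number, gave 6741, 6763 and 8905 called probes. A block chosen after seeing the data, with the numbers of the normalized tables, gave 7023 for differentiation.

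Counts over the whole table were unstable in the microRNA comparisons. For let-7, 5 probes became 15 with median scaling, 337 with no background correction, 3 with 1 probe per gene, 23 with all arrays in 1 fit, 341 with deposited values, 8 with the replicate block, and 0 with no hybridization term or hybridization 3 alone, and 0 to 1 without 1 array. For miR-125, 0 became 245 with no background correction, 499 with all arrays in 1 fit and 348 with deposited values, and the latter settings called 1 member probe, Id2 probe 1, in place of 0. The direct contrast went from 82 to 434 (no background correction), 24 (no filter), 146 (detection p under 0.01), 562 (replicate block), 0 (hybridization 3 alone), 29 (without mock replicate 1 of hybridization 3) and 0 to 75 without 1 array. The cause was not tested.

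Reversals were all of uncalled values. In differentiated against knockout, Bmpr1a probe 1 became -0.055 and Smad1 probe 2 -0.020 with median scaling. Bmpr2 probe 1 became -0.051 for let-7 with all arrays in 1 fit or the mock array of hybridization 3 included, and 0.12 in the direct contrast with the replicate block. Id4 became 0.19 for let-7 in hybridization 3 alone, and -0.030 (no background correction) and -0.086 (without mock replicate 1 of hybridization 3) in the direct contrast. Leaving out 1 array gave -0.056 to 0.14 for Smad1 probe 3 in differentiation and, in differentiated against knockout, -0.0043 to 0.15 and -0.066 to 0.036 for Bmpr1a probes 1 and 2. For let-7 it gave -0.20 to 0.27 for Id1, -0.46 to 0.19 for Id4 and -0.25 to 0.35 for Bmpr2 probe 1, and for miR-125 -1.19 to 0.12 for Id4 and -0.22 to 0.23 for Bmpr2 probe 1. In the direct contrast it gave -0.39 to 0.090 for Id3, -0.33 to 0.67 for Id4, -0.44 to 0.29 for Bmpr2 probe 1, -0.19 to 0.48 for Smad1 probe 3 and -0.074 to 0.15 for Smad6 probe 2.

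Signal over background, 2.22 to 3.15 times in hybridization 1, limits what can be said of Bmp4, Smad6 and Bmpr2.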
